A study of Mus musculus with 6 samples.

Results

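The transcription factors that divide the ventral spinal progenitors into domains were examined in embryoid bodies (EBs) that contained motor neurons. The set held 10 genes fixed by name (Olig2, Olig1, Nkx2-2, Nkx6-1, Nkx6-2, Pax6, Irx3, Dbx2, Neurog2 and Neurog1), and all 10 were found among the 19613 genes of the table. The EBs were grown from HB9 reporter mouse embryonic stem (ES) cells and were driven toward spinal motor neurons with retinoic acid and an agonist of the hedgehog pathway. The EBs, made in the study's own laboratory, served as indicator cells, and each was exposed to blood fluid from male mice of strain B6CBA-Tg(HDexon1)62Gpb/3J at a pre-symptomatic age. This strain bears an exon 1 transgene of human huntingtin and is a model of Huntington's disease. The fluid is named plasma in the sample labels but serum in the study's methods. Each of the 6 arrays carries the same group label and a replicate number (2, 4, 5, 6, 7 or 8), and the study treats the set as 6 serum samples. Which batch of EBs each sample was assayed in is not stated. With 1 group, the values describe levels under this exposure and not a response to it. The EBs were not sorted, and all came from ES cells of a single reporter line. In such bulk samples, fewer cells of a type and less RNA per cell cannot be told apart.

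In the developing spinal cord, Sonic hedgehog from the floor plate and notochord acts as a graded signal that switches transcription factors on or off in ventral progenitors. Factors on either side of a border repress each other, so that each domain carries its own combination. The p3 domain next to the floor plate carries Nkx2-2 and gives rise to V3 interneurons. The pMN domain above it carries Olig2 and gives rise to motor neurons and later to oligodendrocyte precursors. The domains above pMN give rise to further interneurons and carry Irx3 and, farther from the floor plate, Dbx2. Retinoic acid favors Pax6, Irx3 and the neurogenic program. Neurog2 and Neurog1 are proneural factors that drive progenitors out of the cell cycle toward a neuronal fate.

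The sequences below are RefSeq promoter windows (build GRCm38.p6) of the 300 bases from 250 before to 50 after an annotated gene start, written 5′ to 3′ along the gene. They are shown for the factors that the results turn on, namely the lead factors of pMN and p3 and the only factor of the set below background. Also shown are Dbx2 and Neurog2, the pair whose log2 intensities, on that scale, followed each other most closely over the arrays. Capitals mark E-boxes (CANNTG, the core bound by factors of the Olig and Neurog class, the same on both strands) and the TATAAA motif, searched on both strands. For Pax6 the first of 2 windows is shown.
Olig2, chr16:91225300-91225599, plus strand: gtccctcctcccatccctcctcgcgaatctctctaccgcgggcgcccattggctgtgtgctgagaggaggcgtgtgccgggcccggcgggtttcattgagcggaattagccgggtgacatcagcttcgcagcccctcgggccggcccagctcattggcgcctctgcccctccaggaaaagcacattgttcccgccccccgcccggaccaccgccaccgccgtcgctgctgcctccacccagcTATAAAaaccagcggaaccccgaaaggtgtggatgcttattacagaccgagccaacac
Nkx2-2, chr2:147186353-147186652, minus strand: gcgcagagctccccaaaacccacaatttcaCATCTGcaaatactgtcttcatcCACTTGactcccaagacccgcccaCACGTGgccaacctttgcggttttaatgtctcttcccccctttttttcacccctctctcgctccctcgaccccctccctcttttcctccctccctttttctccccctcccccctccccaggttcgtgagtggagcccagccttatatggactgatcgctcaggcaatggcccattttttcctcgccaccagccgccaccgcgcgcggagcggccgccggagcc
Pax6, chr2:105668646-105668945, plus strand: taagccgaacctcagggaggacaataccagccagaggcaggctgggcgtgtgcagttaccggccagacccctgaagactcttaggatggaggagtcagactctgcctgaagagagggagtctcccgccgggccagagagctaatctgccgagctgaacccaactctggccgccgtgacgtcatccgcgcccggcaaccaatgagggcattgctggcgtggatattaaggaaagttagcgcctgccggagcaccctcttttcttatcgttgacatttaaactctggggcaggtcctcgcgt
Dbx2, chr15:95654722-95655021, minus strand: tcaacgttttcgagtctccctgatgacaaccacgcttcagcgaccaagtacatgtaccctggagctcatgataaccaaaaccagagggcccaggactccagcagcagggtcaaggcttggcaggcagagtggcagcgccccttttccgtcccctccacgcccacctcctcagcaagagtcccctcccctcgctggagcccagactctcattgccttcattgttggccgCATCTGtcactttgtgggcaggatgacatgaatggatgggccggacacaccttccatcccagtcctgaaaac
Neurog2, chr3:127632886-127633185, plus strand: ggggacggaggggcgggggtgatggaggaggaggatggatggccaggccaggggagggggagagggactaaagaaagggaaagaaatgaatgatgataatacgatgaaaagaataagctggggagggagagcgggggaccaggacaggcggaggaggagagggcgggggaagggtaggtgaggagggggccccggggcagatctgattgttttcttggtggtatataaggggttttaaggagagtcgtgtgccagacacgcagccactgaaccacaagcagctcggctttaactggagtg

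The table of windows covered 9 of the 10 factors with 10 windows, the entry not matched being Olig1. The Olig2 window held 0 E-boxes, and its TATAAA motif lay 8 bases before the annotated start. The Nkx2-2 window held 3 E-boxes, the most of the 10 windows. E-boxes were present in 5 of the 10 windows, against 72.3% of all 32851 windows. A 9-base GLI motif (GACCACCCA, both strands), the kind of site through which hedgehog signaling acts, was found in 0 of the 10 windows and in 0.25% of all windows. The core of NK2 class sites (AAGTG, both strands, which shares letters with the E-box CACTTG) was in 5 of 10 windows, against 46.4% of all. GC content ranged from 46.3%, in the second Pax6 window, to 69.3% with a median of 59.2%, beside a median of 52.7% over all windows. All 10 windows were rich in CG dinucleotides, with 10 to 40 each, beside a median of 7 over all windows and of 1 over the 948 windows of olfactory receptor genes. These counts describe letters in short windows and say nothing of which factor bound there. RefSeq places Olig1 and Olig2 on chromosome 16 with 0 protein-coding genes starting between them.

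The platform was an Affymetrix exon array for mouse, and each deposited value is an intensity, taken here to log2. Olfactory receptor genes, which are used almost solely in olfactory tissue, served as background. Their 95th percentile on each array was the background level of that array, and the margin of a gene is its log2 intensity minus this level. Background levels ranged from 7.26 in replicate 8 to 7.60 in replicate 5 on the log2 scale. A gene was called above background when its mean margin over the 6 arrays was above 0 with an adjusted p under 0.05 (limma, Benjamini-Hochberg over all genes). By this rule 12327 genes, or 62.9% of all, were above background and 33.2% were below it, while 3.29% of the 1032 olfactory receptor genes were above it. Median intensity per array ranged from 296 to 311. Replicate 8 had the lowest average Pearson's r with the other arrays over all genes, 0.992, beside 0.994 to 0.995 for the others. Probes differ in affinity, so margins rank the signal of each gene against background and do not rank transcript amounts between genes.

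Of the 10 factors, 9 were above background and 1, Pax6, was below it, beside 62.9% above over all genes. The 9 factors exceeded the background of the same array in 6 of 6 arrays each, which 62.0% of all genes did, and Pax6 did so in 0 of 6. The p3 factor Nkx2-2 and the Nkx6 factors had the widest margins of the set, and the proneural factor Neurog2 and the more dorsal factor Dbx2 the narrowest among those above background. The median margin of the 10 factors was 1.13 on the log2 scale, beside 0.77 over all genes and -1.95 over olfactory receptor genes. The 9 calls held with each array left out in turn, replicate 8 included. Against the stricter 99th percentile of olfactory receptor genes 7 factors were above background, beside 43.8% of all genes, and Dbx2 and Neurog2 then had margins of -0.50 and -0.48.

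**Figure D1:**
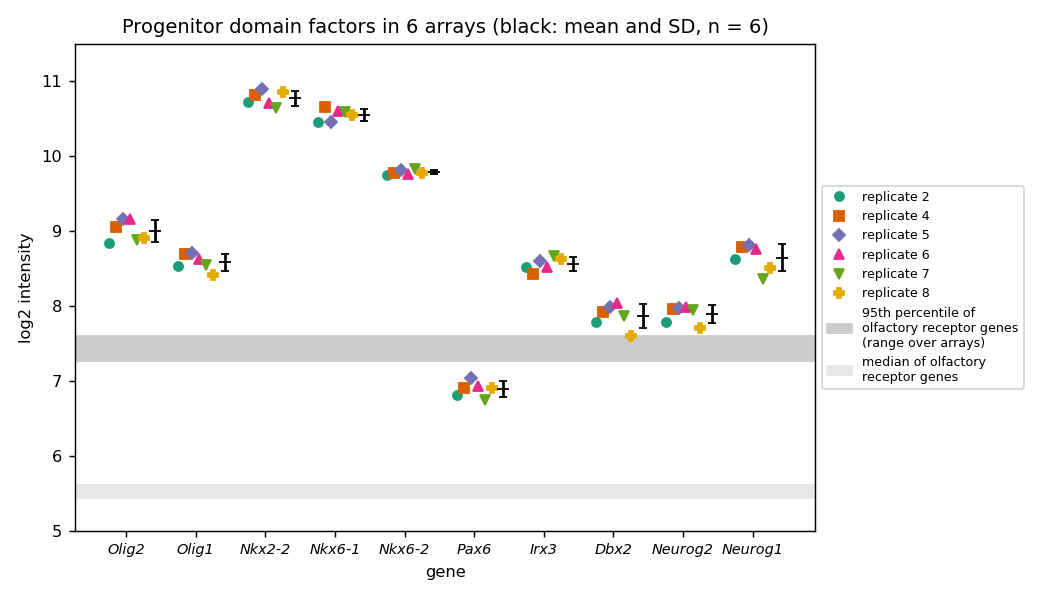
Log2 intensity of the 10 factors (x axis) in each of the 6 arrays, with the mean and SD (n = 6) in black; the dark band spans the 95th percentile of olfactory receptor genes over the arrays and the light band their median. Pax6 lies below the dark band in every array, and the other 9 factors lie above the background of their own array in every array.

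Olig2, the factor that defines pMN and promotes motor neuron fate, had log2 intensities of 8.84, 9.06, 9.17, 9.16, 8.88 and 8.91 in replicates 2, 4, 5, 6, 7 and 8. By log2 intensity, replicates 4, 5 and 6 were high and the other arrays low, with no array far from the rest. By margin over the background of each array, replicate 8 was the highest, at 1.64. The mean was 9.0 ± 0.15 (SD, n = 6) and the margin over background was 1.51 ± 0.061 (SE), a 2.85-fold signal (limma, adjusted p = 1.34e-11). Only 5 of the 1032 olfactory receptor genes had a higher mean. Olig1, a paralogue of Olig2 in the same progenitors that is better known for its part in oligodendrocyte maturation, had 8.53, 8.69, 8.70, 8.63, 8.55 and 8.41 in the same order of arrays. By log2 intensity it was highest in replicate 5, as Olig2 was, and lowest in replicate 8. Its mean of 8.58 ± 0.11 (SD, n = 6) gave a margin of 1.10 ± 0.051 (SE; limma, adjusted p = 6.69e-11).

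Nkx2-2, which sets p3 identity and represses Olig2 at the p3 border, had log2 intensities of 10.72, 10.82, 10.89, 10.71, 10.64 and 10.86 in replicates 2, 4, 5, 6, 7 and 8. It was highest in replicate 5 and lowest in replicate 7, 0 of the 1032 olfactory receptor genes had a higher mean, and 93.0% of all genes had a lower one. The mean was 10.77 ± 0.097 (SD, n = 6) and the margin 3.29 ± 0.072 (SE), a 9.75-fold signal over background (limma, adjusted p = 3.9e-14). Nkx6-1, which is shared by p3, pMN and p2 and is needed for motor neuron fate, had 10.45, 10.65, 10.46, 10.60, 10.59 and 10.54 in the same order. Replicates 2 and 5 were the low arrays by log2 intensity, unlike for Olig2, for which replicate 5 was the highest. By margin, replicate 8 was the highest array for Olig2 and, at 3.28, for Nkx6-1. Its mean was 10.55 ± 0.081 (SD, n = 6) and its margin 3.06 ± 0.067 (SE; limma, adjusted p = 3.73e-14). Nkx6-2, a paralogue with overlapping repressor activity, had 9.75, 9.78, 9.81, 9.77, 9.84 and 9.78. By log2 intensity it was the steadiest of the 10 factors, with a highest array only 1.06-fold over the lowest. By margin it was not, with an SD of 0.121, beside 0.083 for Neurog2, 0.087 for Dbx2 and 0.103 for Olig1. The mean of Nkx6-2 was 9.79 ± 0.031 (SD, n = 6) and its margin 2.30 ± 0.060 (SE; limma, adjusted p = 2.01e-13).

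The factors of more dorsal domains were divided. Pax6, which is found at graded levels from pMN upward and restrains Nkx2-2, had log2 intensities of 6.81, 6.91, 7.04, 6.93, 6.75 and 6.91 in replicates 2, 4, 5, 6, 7 and 8. Every array lay below its background level and above the median of olfactory receptor genes, which ranged from 5.44 to 5.61. The mean was 6.89 ± 0.10 (SD, n = 6), with 124 of the 1032 olfactory receptor genes higher, and the margin was -0.60 ± 0.056 (SE; limma, adjusted p = 1.7e-07). Against vomeronasal receptor genes, another class of chemosensory receptors, the margin of Pax6 was 0.06 with an adjusted p of 0.381 (limma), so its place below background depended on the genes that set the background. The value of a gene is a mean over all its annotated exons, and transcripts that use some of the exons alone were not measured apart.

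Irx3, which opposes Olig2 at the border of p2 and pMN, had 8.52, 8.43, 8.61, 8.52, 8.66 and 8.63. By log2 intensity its highest array was replicate 7 and its lowest replicate 4, an order unlike that of Olig2. By margin its highest array was replicate 8, at 1.37, as for Olig2. The mean was 8.56 ± 0.089 (SD, n = 6) and the margin 1.07 ± 0.059 (SE; limma, adjusted p = 4.17e-10). Dbx2, a factor of intermediate progenitors that is repressed by Nkx6-1, had 7.79, 7.93, 7.99, 8.05, 7.86 and 7.61. Replicate 8 was low, yet its margin of 0.34 over the background of its own array lay inside the range of the other arrays, from 0.28 to 0.50. The mean of Dbx2 was 7.87 ± 0.16 (SD, n = 6) and its margin 0.38 ± 0.045 (SE), a 1.30-fold signal (limma, adjusted p = 1.87e-06).

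Neurog2, the proneural factor of pMN that acts with motor neuron factors at their target genes, had 7.78, 7.97, 7.97, 7.98, 7.94 and 7.70 in replicates 2, 4, 5, 6, 7 and 8. It was low in replicates 2 and 8 and nearly level in the other arrays. The mean was 7.89 ± 0.12 (SD, n = 6) and the margin 0.40 ± 0.044 (SE), a 1.32-fold signal (limma, adjusted p = 9.2e-07), and 21 olfactory receptor genes had a higher mean. Neurog1, a close relative of Neurog2 with proneural activity in other progenitors, had 8.63, 8.79, 8.81, 8.76, 8.36 and 8.51. Its spread was the widest of the set, with a highest array 1.37-fold over the lowest, and replicate 7 was low. The mean was 8.65 ± 0.18 (SD, n = 6) and the margin 1.16 ± 0.068 (SE; limma, adjusted p = 8.51e-10).

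**Figure D2:**
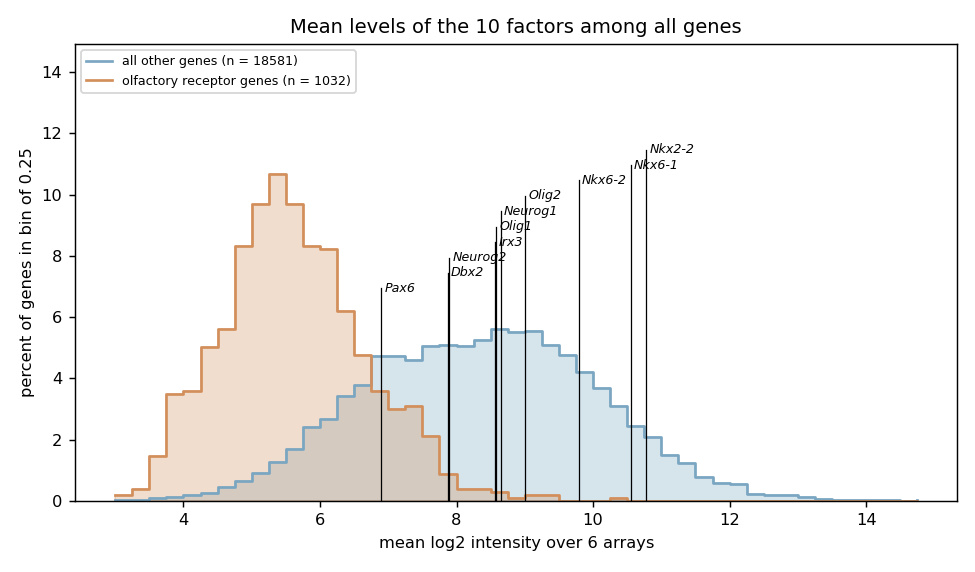
Distribution of mean log2 intensity over the 6 arrays (x axis) as percent of genes per bin (y axis), for 1032 olfactory receptor genes and for all other genes, with black lines at the means of the 10 factors. Nkx2-2 at 10.77 and Nkx6-1 at 10.55 lie right of all olfactory receptor genes, and Nkx6-2 at 9.79 lies right of all but 1. Dbx2 and Neurog2 lie in the upper tail of the olfactory receptor genes, and Pax6 at 6.89 lies within them.

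The other genes that divide the neural tube were read from the same fit to set the factors in context. Over all genes 62.9% were above background, the share to set beside the counts of these lists. Of the 5 matched ventral progenitor factors outside the set, 4 were above background and 1 below. Nkx2-9, which shares the p3 domain with Nkx2-2, had a margin of 3.11 ± 0.084, and Neurog3, a proneural factor of p3, had 1.95 ± 0.086 (SE, n = 6). Foxn4 of p2 had 1.06 ± 0.049 and Dbx1 of p0 had 0.56 ± 0.060, while Prdm12 of p1 was below background at -0.32 ± 0.045 (SE, n = 6). Floor plate genes were all above background, 5 of 5 with a median margin of 4.27, among them the ligand Shh at 4.61 and Foxa2, which specifies the floor plate, at 3.04. Every listed gene of the floor plate and of p3 was therefore above background.

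Dorsal progenitor factors were mixed, with 6 of 12 above background, beside 62.9% of all genes. Of the rest, 4 were below and 2 neither, and the median margin was 0.11. Pax3, Msx2, Msx3 and Atoh1, all genes of the dorsal neural tube, were below background, with margins from -1.43 to -0.23. Pax7, another dorsal factor, was above it by 0.12 ± 0.040 (SE; limma, adjusted p = 0.0118). Gsx2, a homeodomain factor of dorsal progenitors, had a margin of 2.44, the widest among the listed dorsal genes, and Gdf7 had 2.39. Each was wider than the margins of Olig2, at 1.51, and Nkx6-2, at 2.30. General progenitor genes were above background in 7 of 7 cases, with a median margin of 2.36 and the widest, 6.41, in Fabp7, a lipid-binding protein of radial glia.

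The descendants of these domains and the cells of other tissues that use the same factors were listed as well. The counts of these lists stand beside 62.9% of all genes above background, so a call alone does not mark a cell type. All 5 motor neuron markers were above background, with Isl1 at 2.85 and Mnx1, the gene behind the HB9 reporter, at 0.99. All 5 ventral interneuron markers were above it, among them Sim1 of V3 at 1.92, Gata3 of V2 at 1.73, En1 of V1 at 1.39 and Evx1 of V0 at 1.24. Olig1 and Olig2 are also oligodendrocyte lineage factors, and of 6 genes of that lineage 5 were above background with margins of at most 0.97, while Pdgfra, which marks the precursors, was below it at -1.10. Forebrain and eye genes, where Pax6 and Neurog2 are used too, were above in 3 of 5 cases with margins of 0.28 or less, and Otx2 and Emx2 were below. Pancreatic islets share Nkx2-2, Nkx6-1 and Pax6, and 2 of 6 islet genes were above background, Ins1 at 0.94 and Mafa at 1.11, whereas Ins2, Gcg and Iapp were below. Among pluripotency genes, 1 of 4 was above, Nanog at 1.45, and Pou5f1 was at -0.11 without passing the test. These lists put genes of other tissues at margins as wide as those of Olig1, Irx3, Neurog1, Dbx2 and Neurog2, and Nanog came near Olig2, at 1.51. The part of other cells or of nonspecific signal in these margins was not tested.

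**Figure D3:**
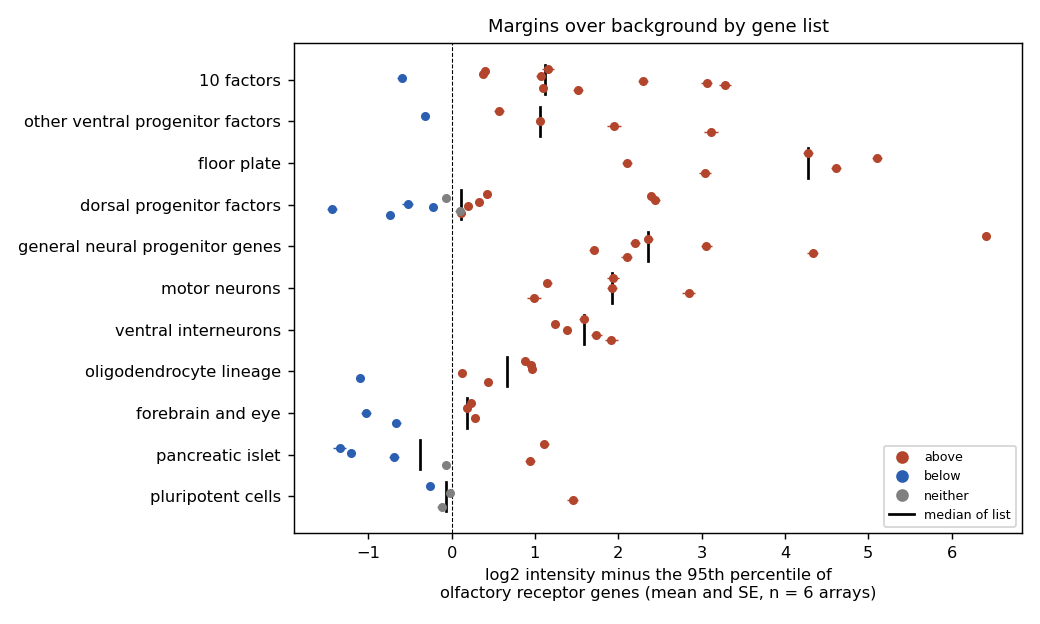
Margin over background on the log2 scale (x axis, mean and SE over 6 arrays, 1 point per gene) for the 10 factors and for lists of other genes (y axis); red is above background, blue below, gray neither, and black bars are list medians. Floor plate genes have the highest median, 4.27, and dorsal progenitor, forebrain, islet and pluripotency genes center near 0 or below.

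How the factors varied among the arrays was examined next. The median SD of the 10 factors was 0.11 on the log2 scale. Compared with the 500 genes nearest in mean level, Neurog1 had a wider SD than 94.8% of them and Olig2 a wider SD than 91.2%. Nkx6-2 lay at the other end, with a wider SD than 4.4% of its neighbors. The SD of Pax6 was wider than 20.6% of its neighbors, and the other 6 factors lay between 52.0% and 83.4%. These SDs are of log2 intensity, and neighbors were not compared by margin. In replicate 2, 0 of 10 factors exceeded their own mean, beside 48.7% of all genes. In replicate 5, 9 of 10 did, the exception being Nkx6-1, beside 58.3% of all genes. The median intensity and the background level were also highest in replicate 5, and their part in this was not tested. By margin over the background of each array, the count was again 0 of 10 in replicate 2, where 54.1% of all genes exceeded their mean margin. It was 6 of 10 in replicate 5, beside 20.8% of all genes, and 9 of 10 in replicate 8, beside 83.3%. For 5 of the 10 factors the highest value came from replicate 5. In replicate 8 Olig1, Dbx2 and Neurog2 had their lowest value, and the background level was lowest there too, at 7.26; its part in these low values was not tested. By margin over the background of each array, replicate 8 was the lowest array for 0 of the 10 factors.

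**Figure D4:**
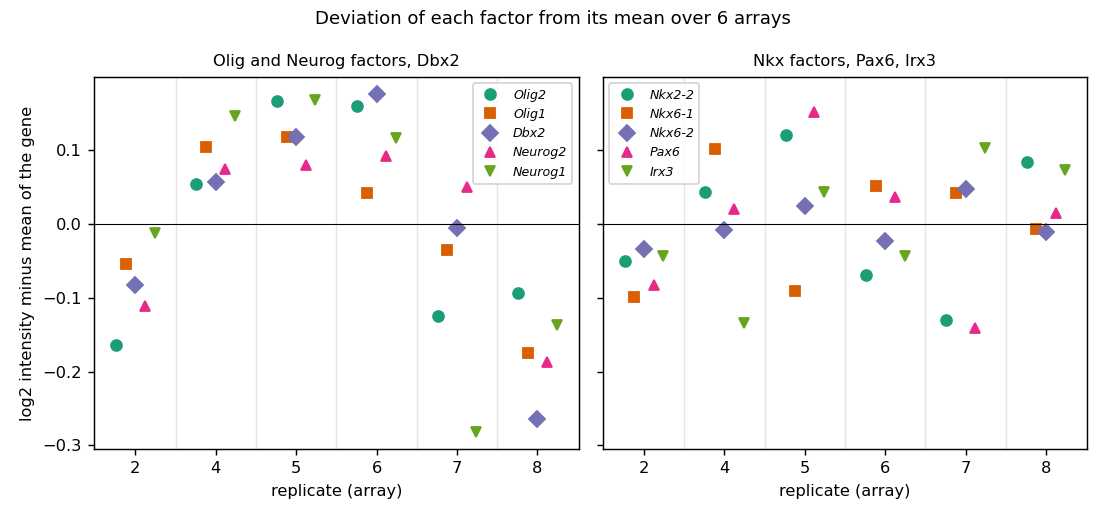
Log2 intensity of each factor minus its own mean over the 6 arrays (y axis) by array (x axis), for Olig2, Olig1, Dbx2, Neurog2 and Neurog1 (left) and for Nkx2-2, Nkx6-1, Nkx6-2, Pax6 and Irx3 (right). The 5 factors at left are all above their means in replicates 4, 5 and 6 and all below in replicates 2 and 8 on this scale. By margin over background, 4 of the 5 are above their mean in replicate 8, beside 83.3% of all genes.

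Olig2, Olig1, Dbx2, Neurog2 and Neurog1 followed a common order, each above its mean in replicates 4, 5 and 6 and below it in replicates 2 and 8. These 5 were picked out after their values were seen, and the order depended on the scaling. By margin, 4 of the 5 were above their own mean in replicate 8, beside 83.3% of all genes. In replicate 6, 3 of the 5 were, beside 22.0% of all genes. Pearson's r on log2 intensity among the 45 pairs of factors ranged from -0.70, between Irx3 and Neurog1, to 0.94, between Dbx2 and Neurog2. The median was 0.18, and 29 pairs were above 0. By margin, r was not taken for Dbx2 with Neurog2. These correlations share the same 6 arrays and are given as a description.

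Among them, 9 pairs with a known regulatory relation or paralogy were tested over the 6 arrays by exact permutation with Benjamini-Hochberg adjustment over the 9. None passed, with 0 of 9 at an adjusted p under 0.05, and 2 of 9 had an unadjusted exact p under 0.05. Olig2 and Pax6 had r = 0.83 (exact p = 0.0292, adjusted p = 0.212) and rho = 0.94 (exact p = 0.0167, adjusted p = 0.15). When the 2 most extreme arrays for Olig2 were dropped, r was 0.69. Nkx2-2 and Pax6, which repress each other at the p3 border, had r = 0.81 (exact p = 0.0472, adjusted p = 0.212) and rho = 0.60 (exact p = 0.242, adjusted p = 0.435). Without replicates 5 and 7, the 2 most extreme arrays for Nkx2-2, r was 0.33, and with any 1 array left out it was at least 0.67. Dropping extreme arrays narrows the range, so the fall cannot show that the relation rested on them. With each gene taken as its margin over the background of the same array, which subtracts a common value from both, Nkx2-2 and Pax6 alone passed, at r = 0.96 (exact p = 0.00417).

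Olig2 and its paralogue Olig1 had r = 0.76 (exact p = 0.0875, adjusted p = 0.263) and rho = 0.77 (exact p = 0.103, adjusted p = 0.308), and without 2 arrays r was 0.68. Olig2 and Neurog2, which acts downstream of it, had r = 0.71 (exact p = 0.125, adjusted p = 0.281) and rho = 0.77 (exact p = 0.103, adjusted p = 0.308), with 0.53 without 2 arrays. Olig2 and Nkx2-2, on either side of the border of pMN and p3, had r = 0.39 (exact p = 0.418, adjusted p = 0.627) and rho = 0.49 (exact p = 0.356, adjusted p = 0.533), with 0.53 without 2 arrays. Olig2 and Irx3, on either side of the upper border of pMN, were the only tested pair with r below 0, at -0.30 (exact p = 0.567, adjusted p = 0.729) and rho = -0.09 (exact p = 0.919, adjusted p = 0.919), with -0.64 without 2 arrays. By margin over the background of each array, r of Olig2 and Irx3 was 0.18 (exact p = 0.806), so its sign turned with the scaling. The other 3 pairs, Nkx6-1 with Dbx2, Nkx6-1 with Nkx6-2 and Neurog2 with Neurog1, had r of 0.22, 0.09 and 0.45, rho of 0.43, 0.26 and 0.66, and r of 0.73, -0.05 and 0.87 without 2 arrays. By margin, Nkx6-1 and Nkx6-2 had r = 0.86 (unadjusted exact p = 0.025), far from their 0.09 by log2 intensity. Their exact p values for r were 0.697, 0.886 and 0.39 (adjusted 0.784, 0.886 and 0.627), and for rho 0.419, 0.658 and 0.175 (adjusted 0.539, 0.741 and 0.394). With 6 arrays a single pair alone can reach an adjusted p of 0.0125.

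**Figure D5:**
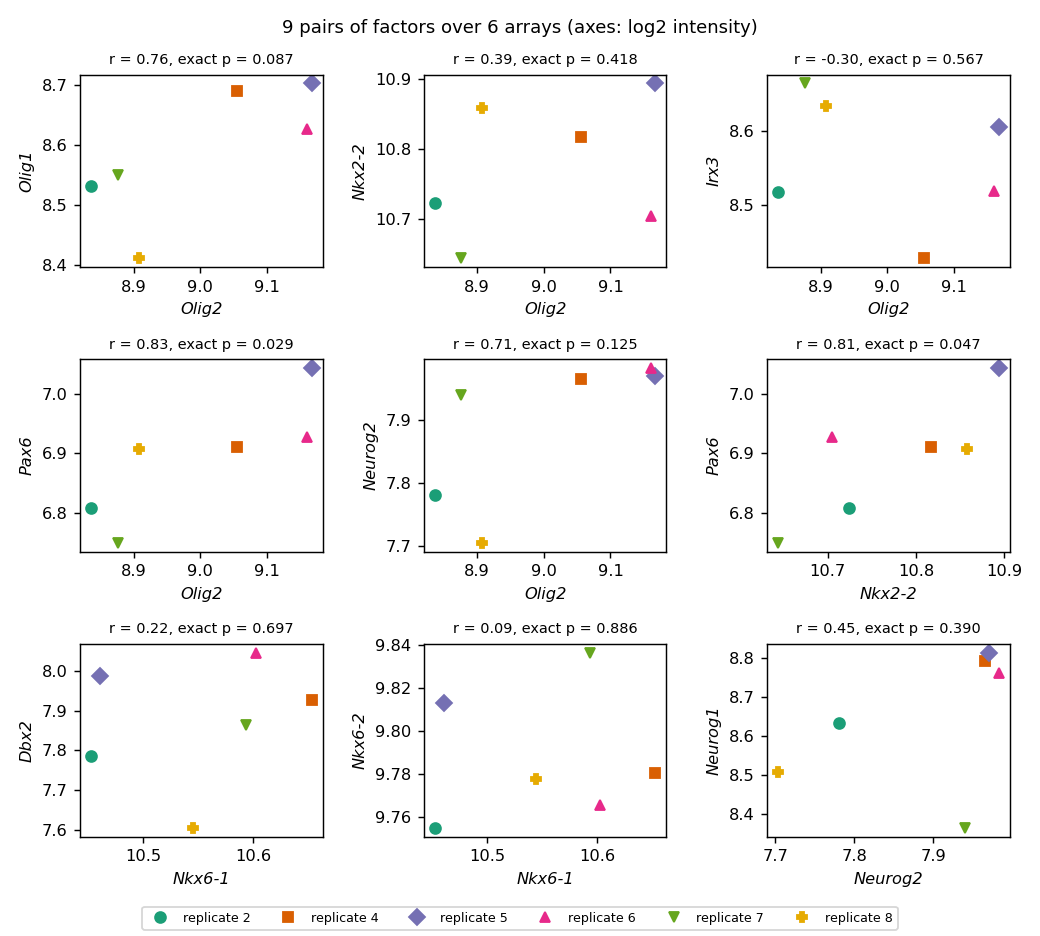
The 9 tested pairs, each panel with the log2 intensity of a first factor on the x axis and a second on the y axis, 1 point per array. The points of Olig2 with Pax6 rise together (r = 0.83), those of Nkx6-1 with Nkx6-2 are scattered (r = 0.09, against 0.86 by margin over the background of each array), and 0 of 9 pairs passed after adjustment.

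The genes above background whose log2 intensities over the 6 arrays were most like those of 3 lead factors were named by a fixed rule. For Olig2 they were Zfp553, H1fx and a gene the table lists as X1600027N09Rik, with Pearson's r of 0.992, 0.99 and 0.985. For Nkx2-2 they were Nt5m, E530001K10Rik and Osbp, with r of 0.998, 0.998 and 0.993. For Neurog2 they were X1600029D21Rik, Sp5 and Bhlhe22, with r of 0.995, 0.99 and 0.989. Bhlhe22 is a factor of the same basic helix-loop-helix class, and Sp5 is a zinc finger factor. These top values were picked from 12326 genes compared over 6 arrays and mark no relation by themselves. At a lower cut, 58 of the 12326 genes (0.47%) had r above 0.9 with Olig2. Within the set, Neurog1 had a higher r with Olig2 than 97.8% of these genes did, Dbx2 than 97.4%, Olig1 than 97.0% and Neurog2 than 95.4%. Nkx2-2 followed at 77.6%. Nkx6-1 at 61.9% and Nkx6-2 at 52.3% lay near the middle, and Irx3 at 29.7% below it. Pax6, with r = 0.83, was not above background and so was not ranked. These ranks are by log2 intensity and were not taken by margin.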

How the data were processed

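Deposited values were intensities, 1 per gene and array. Per the methods, the authors derived these intensities from Affymetrix mouse exon arrays by Robust Multi-array Averaging in Aroma Affymetrix, averaging the exons of each gene, and the submitters' processing notes name RMA and Affymetrix Expression Console. Which arrays were normalized together is not given in the sources used here. The authors removed outlying arrays in their own screen, and whether these 6 had passed it is not stated.

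The deposited linear intensities were taken to log2 with no pseudocount. The table held 0 columns of other samples. Names were matched by symbol, by a dot in place of a hyphen or by RefSeq synonym. Of 62 listed genes outside the set, 60 were matched, with Myrf listed as Gm98 and Irx5 and Six3 not analysed here, and a few further genes of the lists are not reported here. Margins over the 95th percentile of 1032 olfactory receptor genes on the same array were fitted with an intercept in limma 3.58.1 (R 4.3.3, eBayes with trend, two-sided, Benjamini-Hochberg over 19613 genes), after tests on simulated data. Pairs were tested over all 720 pairings. Promoter windows were RefSeq entries. The genes named were all 10 factors, any gene of the lists, and the 3 genes most correlated with Olig2, Nkx2-2 and Neurog2. The factors and lists were chosen with earlier results of these data known. Alternatives changed the background percentile or genes, the scaling, a pseudocount of 16, a filter on low values, the variance prior and the arrays included. The study's correction for EB batch gives log2 ratios of expression to a level predicted from Olig2, Mnx1, Isl1 and Lhx3. The deposited values are linear intensities and not such ratios. The part of EB batch in the spread of Olig2 and the other factors was not tested. P-values measure the spread between these 6 arrays, which may be partly technical, and their number limits the precision.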

Additional observations from a re-analysis of the deposited data

How the results depend on the processing

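The 9 factors above background stayed 9 under every alternative run but 1, the 99th percentile, which left 7. There the other listed genes above background went from 43 to 27, and margins turned below 0 for Dbx2 (-0.50), Neurog2 (-0.48), Dbx1 (-0.32), Pax7 (-0.76), Olig3 (-0.68), Gsx1 (-0.55), Lmx1a (-0.45), Sox10 (-0.44), Cspg4 (-0.76), Emx1 (-0.60), Rax (-0.69) and Lhx2 (-0.65). At the 90th percentile Prdm12 (0.10), Msx3 (0.19) and Esrrb (0.15) turned above 0. With vomeronasal receptor genes as background Pax6 (0.063), Prdm12 (0.34), Msx3 (0.43), Atoh1 (0.13) and Esrrb (0.40) did. Within an array, a change of background moves all margins alike by construction. With margins in place of log2 intensities, chosen after seeing the data, 1 of 9 pairs passed and the median SD was 0.151. With 1 array left out the median SD ranged from 0.0949 to 0.117, and 0 of 9 pairs passed at 5 arrays, where 1 pair passing alone could reach an adjusted p of 0.075 at best. No paired analysis was possible because there was a single group. The signal over background limits what can be said of Dbx2 and Neurog2.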
